A study of Rattus norvegicus with 10 samples.

Results

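Dab2 (Disabled-2) and the genes of the clathrin coat were followed in cultured microglia, the resident macrophages of the brain, after activation by interferon gamma (IFN-gamma), a cytokine of T cells and natural killer cells. The members were Dab2, the clathrin genes Clta, Cltb and Cltc, and the AP2 genes Ap2a2, Ap2b1 and Ap2m1. All probe sets of the array whose only annotated symbol was one of these 7 genes were taken, which gave 12 of 8799 probe sets. Dab2 was chosen by its measured fold change, since its level was lower with IFN-gamma in these same arrays, so its values are a description with no test. The question was whether that fall was shared by the coat and AP2 genes.

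The IFN-gamma cultures were primary microglia of neonatal rat brain that received fresh medium with 100 U/ml IFN-gamma for 16 hours. The control cultures were the same kind of cells given fresh medium alone. All were grown from tissue of 1 brain per flask in medium with 15% fetal calf serum and plated at 100000 cells per dish on day 15. RNA of 3 IFN-gamma cultures (culture 1 on 3 technical arrays, 1a, 1b and 1c) and of 5 control cultures (1, 2, 3, 5 and 6) was hybridised to 10 Affymetrix rat expression arrays. The labels give no strain, sex or purity of the cultures.

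Clathrin-mediated endocytosis brings receptors and their ligands into the cell. The clathrin heavy chain (Cltc) and the light chains (Clta, Cltb) form the cage around the budding pit, and the AP2 complex, built from alpha, beta, mu and sigma subunits, links that cage to the membrane and to cargo. Dab2 is a cargo-selective adaptor that binds NPXY signals in the tails of receptors of the low-density lipoprotein receptor family and of integrins, and that also binds AP2 and clathrin. It is known as well for roles in TGF-beta signalling and is expressed by macrophages.

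Levels are normalised log2(signal + 16) values, where a signal of 0 lies at 4, so the fold change of a dim probe set is understated. The deposited median signal was 11.1 to 23.7 on the IFN-gamma arrays and 7.4 to 20.2 on the control arrays, and the number of arrays limits the precision. In total RNA of a culture, fewer cells of a type and less RNA per cell cannot be told apart. Of 18 microglia and macrophage marker genes 11 were measured. Among them Csf1r was dim (below a mean level of 5) and 0 were listed at a signal of 0. Their summed normalised signal was 7417 to 8548 in the IFN-gamma cultures and 2580 to 3817 in the controls, most of it from the lysozyme gene Lyz2. Without Lyz2 the sum was 2034 to 2385 in the IFN-gamma cultures and 1255 to 1526 in the controls. The markers did not move as 1. Of their 19 probe sets 4, of Lyz2, C1qb and C1qc, were called higher and 0 lower (limma, adjusted p under 0.05). Over all probe sets 0.927% were called higher. Another 5 had a log2 fold change below 0, among them both of Cd14 and those of Cx3cr1 and Fcgr2b.

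Dab2, chosen for its fall, had the largest decrease of the 7 genes. Of the 11 coat and AP2 probe sets 0 passed the test (limma, adjusted p under 0.05), which 1.53% of all probe sets did. At that share 11 probe sets may hold 0 calls, so this count alone does not say whether the fall was shared. An unadjusted p under 0.05 (limma) was found in 3 of the 11, and in 10.5% of all probe sets. Of these 11, 7 were too dim to show a difference as large as that of Dab2. Cltc, the clathrin heavy chain, came nearest. It had a log2 fold change of -0.98 ± 0.20 (SE), about 1.97-fold lower with IFN-gamma, and an adjusted p of 0.0501 (limma, Benjamini-Hochberg over 8740 probe sets). The brighter Clta probe set and 1 of 3 Ap2b1 probe sets also had every IFN-gamma culture below every control, as 3.4% of all probe sets had, without passing. Ap2m1, the AP2 mu subunit that reads tyrosine-based sorting signals, had a positive log2 fold change of 0.48.

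**Figure D1:**
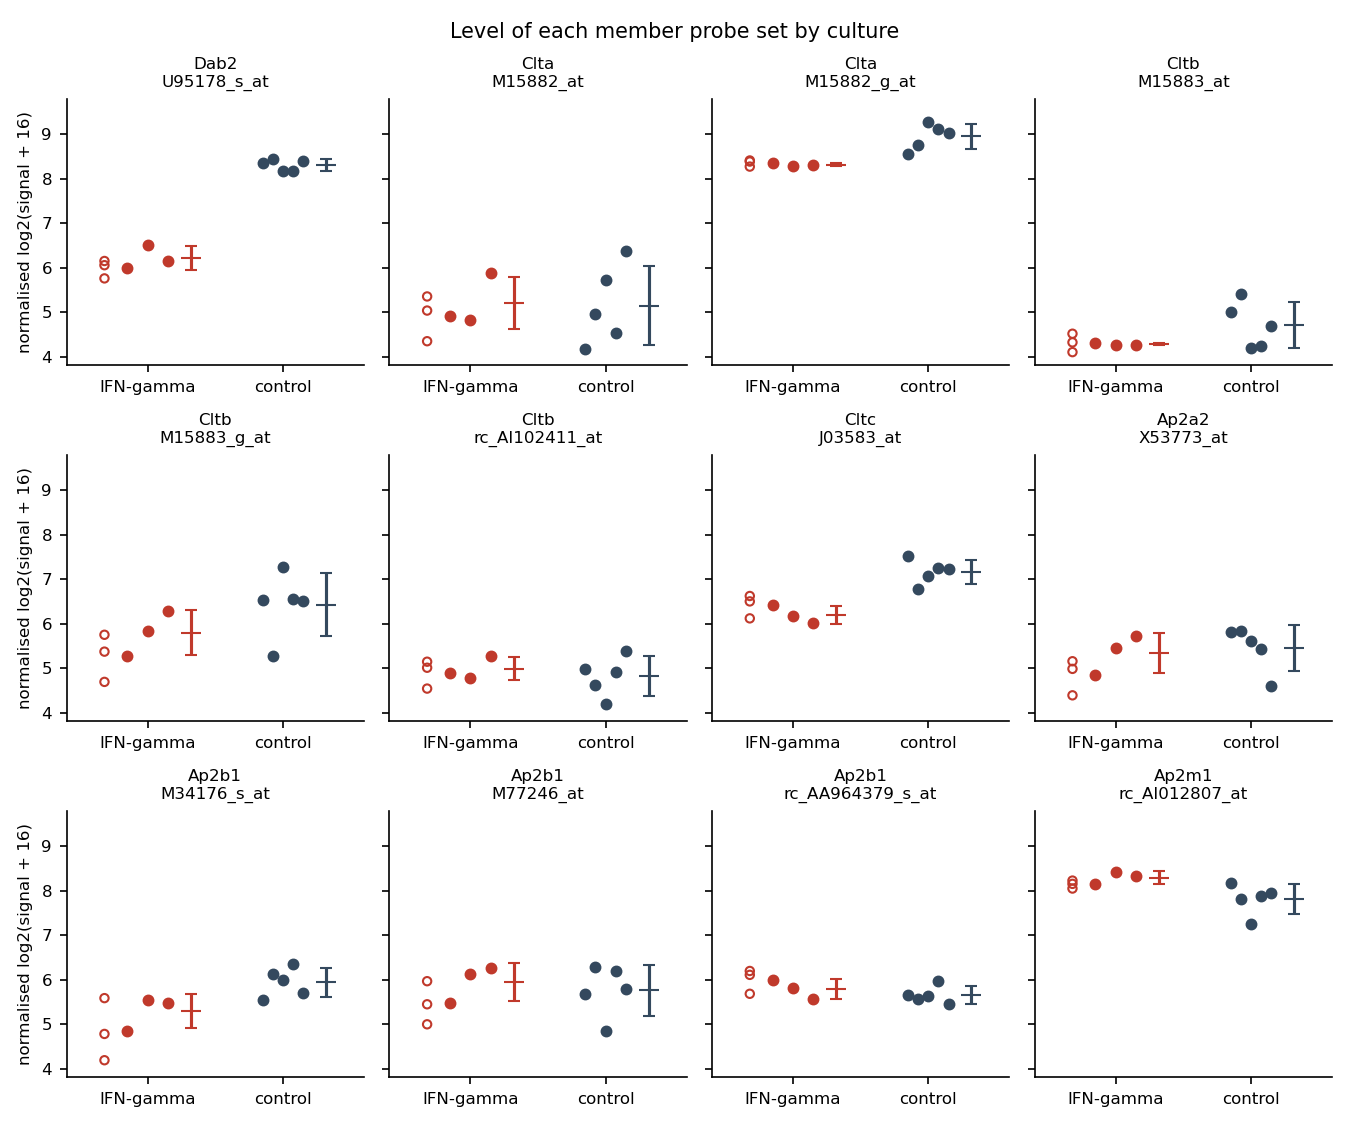
Normalised log2(signal + 16) of the 12 member probe sets. Filled points are cultures (3 IFN-gamma, 5 control), open points are the technical arrays 1a, 1b and 1c whose mean is IFN-gamma culture 1, and bars give the mean ± SD. The Dab2 groups stand apart (5.99 to 6.52 with IFN-gamma, 8.18 to 8.45 in controls), while the groups of 8 of the 11 other probe sets overlap.

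Dab2 was measured by 1 probe set, U95178_s_at. Its suffix is among those counted here as marking reduced specificity (_s, _x, _r, _f, _g and _i before _at). Clta M15882_g_at, Cltb M15883_g_at, and Ap2b1 M34176_s_at and rc_AA964379_s_at carry such suffixes too. Its level was 5.99, 6.52 and 6.15 in IFN-gamma cultures 1, 2 and 3, against 8.35, 8.45, 8.18, 8.18 and 8.40 in control cultures 1, 2, 3, 5 and 6. The 2 groups were far apart, with all IFN-gamma cultures low and the controls close together. The means were 6.22 ± 0.27 (SD, n = 3) with IFN-gamma and 8.31 ± 0.125 (SD, n = 5) in controls, a 4.26-fold lower level (log2 fold change -2.09, 95% interval -2.48 to -1.70). It was at rank 9 from the lowest among all 8740 log2 fold changes. Dab2 was chosen for this fall, so the interval and the rank are descriptions and test nothing.

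The technical arrays of IFN-gamma culture 1 gave 6.06, 5.76 and 6.15 for Dab2, with an SD of 0.204 between arrays of the same culture. The deposited Dab2 signal was 37.6, 61.6 and 39.2 on arrays 1a, 1b and 1c, 88.3 on array 2 and 80.9 on array 3. On the control arrays it was 598, 193, 77.9, 261 and 396. As deposited, the dimmest control array, culture 3, therefore lay below 2 of the IFN-gamma arrays, and the separation of the groups appeared once the arrays were put on a common scale.

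The 250 bases before the RefSeq start of Dab2 and of Cltc are shown because these were the 2 members with the largest decreases. Both come from RefSeq on the build GRCr8, Dab2 at chr2:57272050-57272299 on the plus strand and Cltc at chr10:72070692-72070941 on the minus strand. Capitals mark every match to the motifs listed after them.
Dab2: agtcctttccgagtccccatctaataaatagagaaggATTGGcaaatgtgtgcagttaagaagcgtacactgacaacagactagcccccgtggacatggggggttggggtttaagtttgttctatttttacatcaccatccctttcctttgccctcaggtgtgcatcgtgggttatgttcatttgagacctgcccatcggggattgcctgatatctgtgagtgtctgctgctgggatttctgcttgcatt
Cltc: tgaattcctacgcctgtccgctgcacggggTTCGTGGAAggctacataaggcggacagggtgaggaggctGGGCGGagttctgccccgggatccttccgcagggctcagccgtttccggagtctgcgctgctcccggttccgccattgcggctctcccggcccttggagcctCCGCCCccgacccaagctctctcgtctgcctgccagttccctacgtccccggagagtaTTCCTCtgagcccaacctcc
All 7 members had such a window in the table. The Dab2 window ends 30353 bases inside the annotated span of the gene and the Cltc window 2617 bases inside, so the annotated span of both genes starts further upstream. Searched on both strands were the gamma-activated site TTCNNNGAA, the interferon-stimulated response element core GAAANNGAA, the PU.1 core GAGGAA, the GC box GGGCGG, the TATA box TATAAA and the box CCAAT. The Dab2 window held CCAAT alone, on the minus strand, which 34.0% of 33465 such windows hold. The Cltc window held 1 TTCNNNGAA (7.67% of all windows), 1 GAGGAA (23.3%) and 2 GGGCGG (30.5%), and no 2 of its matches overlapped. Neither held GAAANNGAA (8.12%) or TATAAA (12.9%). TTCNNNGAA was not particular to Cltc, since the Cltb and Ap2b1 windows held 1 each. Those of Clta, Ap2a2 and Ap2m1 held 0. GGGCGG was also in the windows of Cltb, Ap2a2 and Ap2m1, whereas GAGGAA was in that of Cltc alone. CCAAT was in the windows of Dab2 and Clta. These matches describe the letters in these windows and nothing about binding.

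Among the clathrin genes, the heavy chain had the lowest value. The Cltc level (J03583_at) was 6.42, 6.16 and 6.01 in IFN-gamma cultures 1, 2 and 3, against 7.51, 6.77, 7.08, 7.26 and 7.23 in control cultures 1, 2, 3, 5 and 6. All IFN-gamma cultures lay below all controls, and the gap to control culture 2 was narrow. The difference (95% interval -1.43 to -0.53) missed the threshold by little, with an unadjusted p of 0.000796, and Cltc passed in 4 of 21 other settings, which included the omission of control culture 2 (adjusted p = 0.0351).

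Clta, a light chain that regulates cage assembly, was measured by 2 probe sets that differ in brightness. M15882_g_at had 8.36, 8.29 and 8.32 in IFN-gamma cultures 1, 2 and 3, against 8.57, 8.76, 9.28, 9.12 and 9.04 in control cultures 1, 2, 3, 5 and 6. The groups did not overlap and the SD over the IFN-gamma cultures was 0.0367. The log2 fold change was -0.63 ± 0.19 (SE, 95% interval -1.07 to -0.20, adjusted p = 0.209). The sign of this value depended on the scaling, since with no scaling between arrays it was 0.094, where the median of all probe sets was 0.10.

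The dim Clta probe set M15882_at ran from 4.82 to 5.89 with IFN-gamma and from 4.17 to 6.37 in controls. Its log2 fold change was 0.06 ± 0.49 (SE, adjusted p = 0.991), so the wide overlap leaves its direction undetermined.

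Cltb, the other light chain, had 3 probe sets and overlapping groups in each. M15883_g_at had 5.27, 5.84 and 6.28 in IFN-gamma cultures 1, 2 and 3, against 6.53, 5.28, 7.27, 6.56 and 6.52 in control cultures 1, 2, 3, 5 and 6. Control culture 2 was as low as the lowest IFN-gamma culture, and the other controls were higher than all 3. The log2 fold change was -0.63 ± 0.41 (SE, adjusted p = 0.702). M15883_at, close to the floor at 4.26 to 4.31 with IFN-gamma and 4.19 to 5.40 in controls, had -0.42 (adjusted p = 0.723). The third, rc_AI102411_at, had 0.16 (adjusted p = 0.929), so the Cltb probe sets did not share a sign.

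The AP2 probe sets had log2 fold changes of both signs. Ap2m1 (rc_AI012807_at), the brightest of them, had 8.15, 8.42 and 8.33 in IFN-gamma cultures 1, 2 and 3, against 8.18, 7.82, 7.26, 7.89 and 7.95 in control cultures 1, 2, 3, 5 and 6. IFN-gamma culture 1 lay just under control culture 1, and otherwise the IFN-gamma cultures were higher. The log2 fold change was 0.48 ± 0.22 (SE, 95% interval -0.01 to 0.97, adjusted p = 0.487), and its sign was positive in all 21 other settings. Technical error was small here, with an SD of 0.09 over arrays 1a, 1b and 1c.

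Ap2b1, the beta subunit that binds clathrin, was read by 3 probe sets with different values. M34176_s_at had 4.85, 5.53 and 5.48 in IFN-gamma cultures 1, 2 and 3, against 5.54, 6.12, 5.997, 6.36 and 5.70 in control cultures 1, 2, 3, 5 and 6. The groups did not overlap, but IFN-gamma culture 2 and control culture 1 lay side by side, and arrays 1a, 1b and 1c of IFN-gamma culture 1 themselves spread over 4.78, 5.59 and 4.19. Its log2 fold change was -0.65 ± 0.25 (SE, adjusted p = 0.346). M77246_at and rc_AA964379_s_at had 0.19 (adjusted p = 0.936) and 0.13 (adjusted p = 0.901), with overlapping groups.

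Ap2a2, a subunit of the alpha type that contacts the membrane lipid PIP2, ran from 4.84 to 5.72 with IFN-gamma and from 4.59 to 5.84 in controls. Its log2 fold change was -0.12 ± 0.32 (SE, adjusted p = 0.962). The sigma subunit gene Ap2s1, which was not a member, had 0.07 and -0.03 by its 2 probe sets (adjusted p = 0.967 and 0.992).

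Over the 11 coat and AP2 probe sets, 6 had a log2 fold change below 0 and 5 above. The median was -0.12, beside -0.02 over all 8740. Of the 11, 0 passed at an adjusted p under 0.05 (limma), where 1.53% of all probe sets did (0.606% lower, 0.927% higher), and 3 had an unadjusted p under 0.05, where 10.5% did. The IFN-gamma cultures lay entirely below the controls in 3 of the 11 (Cltc, Clta M15882_g_at and Ap2b1 M34176_s_at), a separation found in 3.4% of all probe sets, and entirely above in 0, against 4.28%. The coat and AP2 genes were proposed with results of these arrays known, so these shares are a description.

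The scale limits how large a fall could be seen. Its smallest normalised value was 4.02, so a probe set needed a control mean of at least 6.11 to show a difference as large as that of Dab2. Of the 11 coat and AP2 probe sets 4 had one, namely Cltc, Clta M15882_g_at, Cltb M15883_g_at and Ap2m1. The lower 95% bounds of their log2 fold changes were -1.43 for Cltc, -1.07 for Clta M15882_g_at, -1.55 for Cltb M15883_g_at and -0.01 for Ap2m1. The other 7, among them Ap2a2 and all 3 Ap2b1 probe sets, had control means of 4.70 to 5.94 and could not have shown it.

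**Figure D2:**
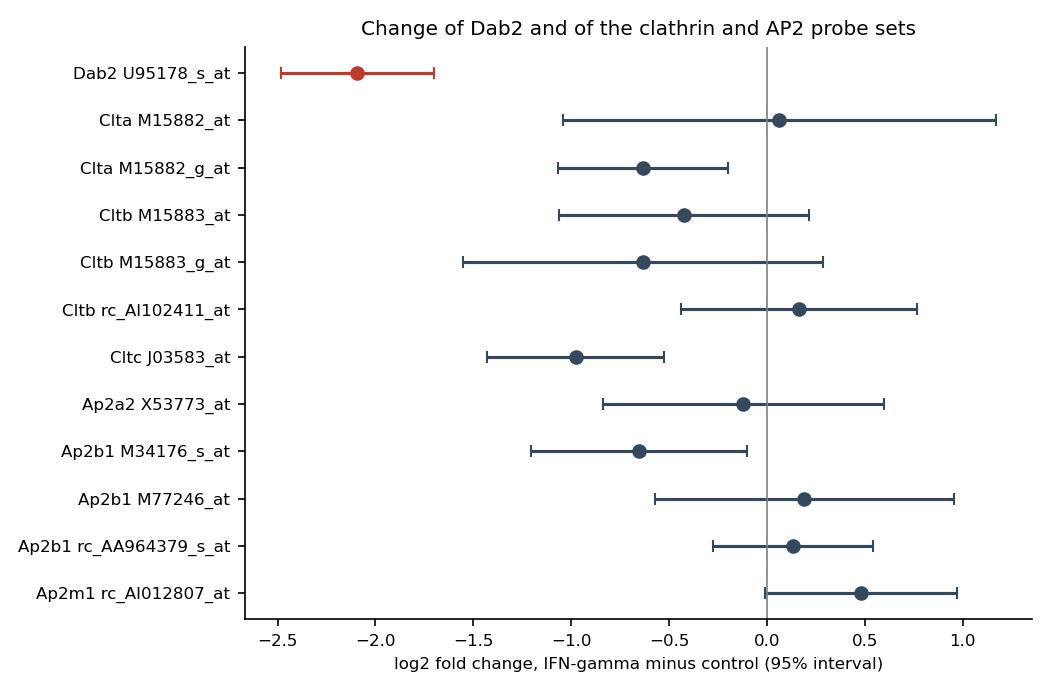
Log2 fold change (IFN-gamma minus control) of each member probe set with its 95% interval, from limma over 3 IFN-gamma and 5 control cultures. Dab2 lies at -2.09 and the coat and AP2 probe sets between -0.98 and 0.48. Dab2 was chosen for its fall in these arrays, so its interval is a description.

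The ratio of 2 signals on the same array does not depend on scaling between arrays, so the deposited Dab2 signal was divided by that of each coat and AP2 probe set. The ratio has no meaning as a level, and only its change between cultures is read. Dab2 over Cltc was 0.663, 1.42 and 1.17 in IFN-gamma cultures 1, 2 and 3 (culture 1 as the geometric mean of its arrays), against 2.14, 3.27, 1.77, 1.86 and 2.48 in control cultures 1, 2, 3, 5 and 6. The IFN-gamma cultures were all lower, by 2.18-fold between geometric means.

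Against Clta M15882_g_at the ratio was 0.144 to 0.216 with IFN-gamma and 0.494 to 0.838 in controls, 3.89-fold lower. Against Ap2m1 it was 0.15 to 0.195 with IFN-gamma and 1.16 to 1.65 in controls, 8.04-fold lower. In 7 of the 11 ratios the IFN-gamma cultures lay below all controls, as they did for 53.5% of the 8739 other probe sets. Since Dab2 was chosen for its lower level, a lower ratio follows from the choice, and nothing is read from this count. The 4 with overlap were those to Clta M15882_at, Cltb M15883_at and M15883_g_at, and Ap2b1 M34176_s_at.

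**Figure D3:**
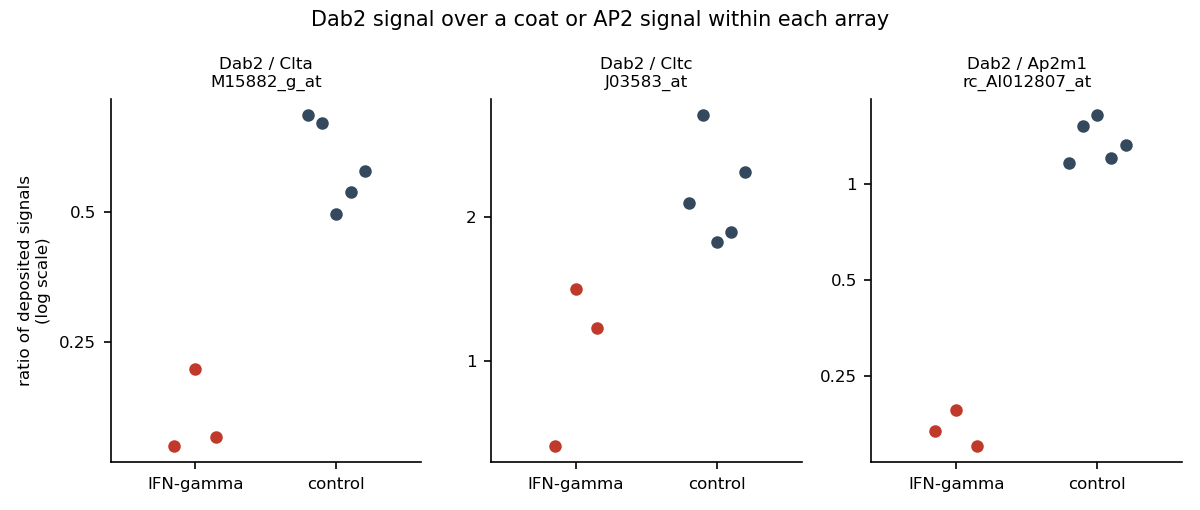
Deposited Dab2 signal divided by that of Clta (M15882_g_at), Cltc and Ap2m1 on the same array, on log axes that differ between panels. Each point is a culture, with 3 IFN-gamma cultures left and 5 controls right. The groups do not overlap in any of the 3 panels, which are among the 7 of 11 ratios without overlap. A lower ratio follows from the choice of Dab2 for its fall.

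The wider endocytic machinery was read through lists of genes. Over all 8740 probe sets, 1.53% passed by limma (0.606% lower, 0.927% higher) and 10.5% had an unadjusted p under 0.05. At these shares a short list may hold 0 calls, so the counts for the lists are descriptions. Among endocytic accessory proteins, which bend, coat and cut the membrane, 23 of 47 genes were measured by 32 probe sets, and 0 passed in either direction by limma (2 had an unadjusted p under 0.05). The median log2 fold change was 0.07. The epsins, which bind the membrane and ubiquitin-tagged cargo, had values of opposite sign, neither of which passed. Epn2 had 5.02 ± 0.685 (SD, n = 3) with IFN-gamma and 5.99 ± 0.261 (SD, n = 5) in controls (log2 fold change -0.97, adjusted p = 0.21), whereas Epn1 had 0.74 (adjusted p = 0.438). Gipc1, an adaptor that binds myosin VI as Dab2 does, had 0.80 by 1 of 3 probe sets (adjusted p = 0.486), -0.48 by the brightest (adjusted p = 0.846) and 0.32 by the third (adjusted p = 0.859).

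Receptors carried by Dab2 and its signalling partners gave 21 measured genes of 29 and 30 probe sets, of which 0 passed by limma (4 had an unadjusted p under 0.05). The median was -0.07. Fgr, a Src-family kinase of myeloid cells, stood at 0.94 on the log2 fold scale (adjusted p = 0.0819), with a mean of 5.44 in IFN-gamma cultures and 4.50, near the floor, in controls. App, the amyloid precursor gene, whose protein carries an NPXY signal, had 0.61 by 1 of 2 probe sets (adjusted p = 0.146) and 0.38 by the other, brighter one (adjusted p = 0.507). The tetraspanin gene Cd9 had -0.91 (adjusted p = 0.187), and -0.88 by its other probe set (adjusted p = 0.201). The groups did not overlap in Fgr, in both Cd9 probe sets and in the dimmer App probe set, and overlapped in the brighter one. In 10 of the 21 genes the brightest probe set had a mean level of at least 5, and the dim ones included Lrp2, Cubn and Vldlr, receptors that Dab2 or its relative Dab1 is known to serve.

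Other adaptor complexes (AP1 and AP3) had 4 of 18 genes measured by 6 probe sets, and 0 passed by limma, with 0 at an unadjusted p under 0.05. Their values ran from -0.36 to 0.54. The nearest to the threshold were Ap3m1 (0.54, adjusted p = 0.718), Ap1b1 (-0.29, adjusted p = 0.775) and Ap3m2 (-0.17, adjusted p = 0.822). The brighter probe sets of Ap1b1 and Ap3m2 had -0.14 (adjusted p = 0.953) and -0.21 (adjusted p = 0.938). AP2 and clathrin genes outside the members were represented by Ap2s1 alone.

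Endosome and recycling genes had 21 of 43 measured by 29 probe sets, and 0 passed by limma (1 had an unadjusted p under 0.05), with a median of 0.00. Rab7a, a GTPase of late endosomes, had 0.60 (adjusted p = 0.338). Hgs, which sorts ubiquitin-tagged cargo, had 0.82 (adjusted p = 0.597), and the ATPase gene Vps4a had -0.32 (adjusted p = 0.638). Caveolin and flotillin genes, which mark uptake without clathrin, had 5 of 10 measured by 9 probe sets, and 0 passed by limma, with 0 at an unadjusted p under 0.05. Cavin3 had 0.20 (adjusted p = 0.787), Cav3 -0.19 by 1 of 3 probe sets (adjusted p = 0.794), of which another had 0.085 (adjusted p = 0.962), and Flot1 -0.50 (adjusted p = 0.812).

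Calls were found in 1 list alone, and they came from 1 gene, so they do not describe that list as a whole. Over all probe sets 0.606% were called lower and 0.927% higher. Of scavenger, mannose and phagocytic uptake receptors 10 of 29 genes were measured by 18 probe sets, and 2 probe sets were lower and 0 higher. Both belonged to Scarb1, a receptor for high-density lipoprotein. AF071495_s_at had 4.78 ± 0.498 (SD, n = 3) with IFN-gamma and 7.08 ± 0.263 (SD, n = 5) in controls (log2 fold change -2.29, adjusted p = 0.0017). D89655_at fell by 1.31 on the log2 scale (adjusted p = 0.013), a call that 7 of 21 other settings did not keep, and that ended when IFN-gamma culture 1, 2 or 3 was omitted (adjusted p = 0.0834, 0.0607 and 0.0687). The third Scarb1 probe set, the brightest, had -1.48 (adjusted p = 0.116). It passed by limma with the filter at a mean of 5 (adjusted p = 0.0326) and with trend and robust variance (adjusted p = 0.032). Itgam, the integrin chain of complement receptor 3, had 0.79 (adjusted p = 0.0951). The lipopolysaccharide co-receptor gene Cd14 had -0.55 by 1 of 2 probe sets (adjusted p = 0.429) and -0.34 by the other, brighter one (adjusted p = 0.609). Tyro3, a receptor for apoptotic cells, had 0.27 by 1 of 2 probe sets (adjusted p = 0.851) and -0.12 by the other (adjusted p = 0.965).

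**Figure D4:**
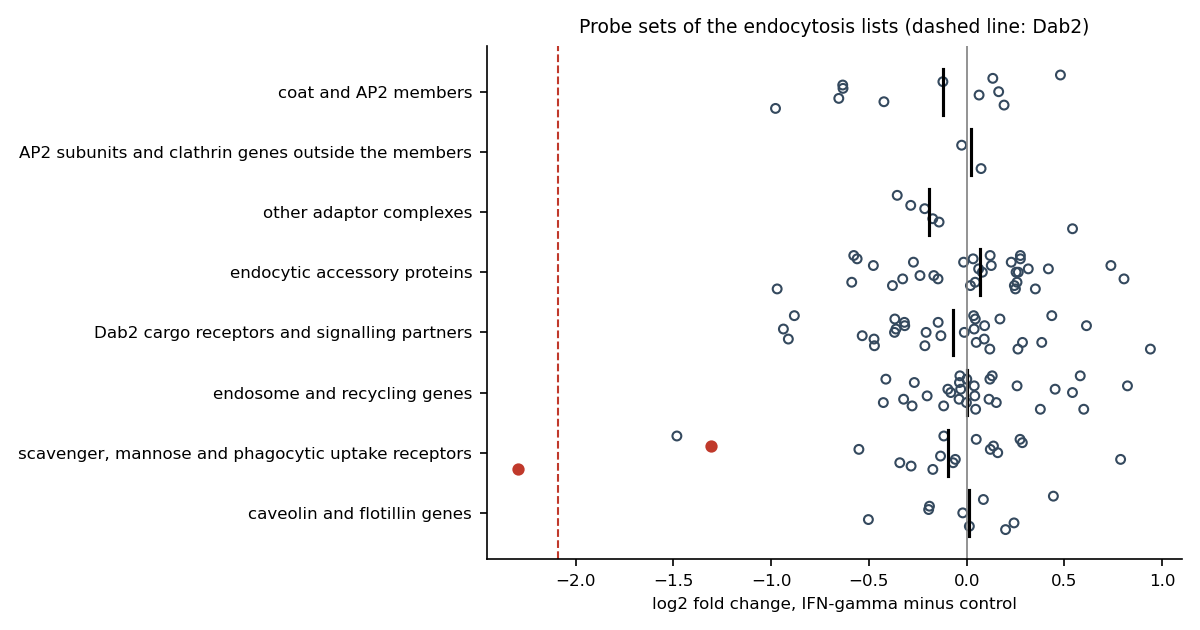
Log2 fold change (IFN-gamma minus control) of every probe set in the 8 endocytosis lists. Filled points passed the adjusted p threshold, open points did not, black bars are list medians and the dashed line is Dab2 at -2.09. The 2 filled points are probe sets of Scarb1.

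The genes whose pattern over the 8 cultures was most like that of Dab2 were found by the root mean square difference between the profiles, each centred on its own mean. Each gene is given by its closest probe set alone. The closest of 7005 probe sets was Ctsd, a lysosomal protease gene, at 0.215, followed by the lipoprotein lipase gene Lpl (0.256), the tetraspanin gene Cd81 (0.332), the growth factor gene Igf1 (0.339), the GTPase gene Arl11 (0.341) and the Fc receptor gene Fcgrt (0.360). The median over all was 1.07. These 6 had log2 fold changes between -2.36 and -1.52, which the likeness itself selects, so they are given with no test. The pattern need not hold for a whole gene. Igf1 had 1 of its 5 probe sets above 0, while the other genes had none above 0. The nearest coat gene was Cltc, at 0.621 and rank 52, and Ap2m1 stood at 1.26 and rank 6075. Since the measure depends largely on the size of the fold change, these ranks restate the fold changes and add no separate evidence.

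Summed signals of markers of some other cell types differed between the groups. For astrocytes 9 of 11 markers were measured, with a summed signal of 298 to 328 in IFN-gamma cultures and 581 to 1009 in controls. Most of the difference was in Glul, glutamine synthetase, of which 1 of 4 probe sets was called lower (log2 fold change -1.66, adjusted p = 0.00301). Without Glul the sum was 153 to 176 in the IFN-gamma cultures and 139 to 269 in the controls. Aqp4, Gja1, S100b and Slc4a4 were dim throughout.

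For fibroblasts and meningeal cells 8 of 10 markers were measured, at 141 to 186 with IFN-gamma and 215 to 299 in controls, and 1 probe set was called lower, 1 of 4 of the collagen gene Col1a1 (log2 fold change -1.20, adjusted p = 0.0239). The other 3 Col1a1 probe sets had -0.16 (adjusted p = 0.962), -0.085 (adjusted p = 0.96) and, for the brightest, a mean of 5.83 in both groups. Lum, Pdgfrb and Thy1 were dim. Lower values were not limited to Col1a1. Log2 fold changes of the brightest probe set per gene were -0.72 for Pdgfra, -0.71 for Col1a2, -0.59 for Lum and -0.55 for Col3a1. Each of these was under 0.05 by unadjusted p (limma), and none passed after adjustment. The remaining genes stood at -0.23 (Pdgfrb), -0.05 (Dcn) and 0.22 (Thy1). Summed signals overlapped between the groups for markers of oligodendrocytes (7 of 11 measured), neurons (8 of 12) and endothelium (5 of 10). No marker was listed at a signal of 0. The part of these shifts in the Dab2 and Cltc values was not tested.

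The members kept or lost their sign under other processing as follows. Dab2 lay between -2.36 and -1.59 in the 20 other settings that kept it. Cltc lay between -1.16 and -0.64 in 21 settings, always negative. Clta M15882_g_at ran from -0.73 to 0.094, and Ap2m1 from 0.34 to 1.05.

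**Figure D5:**
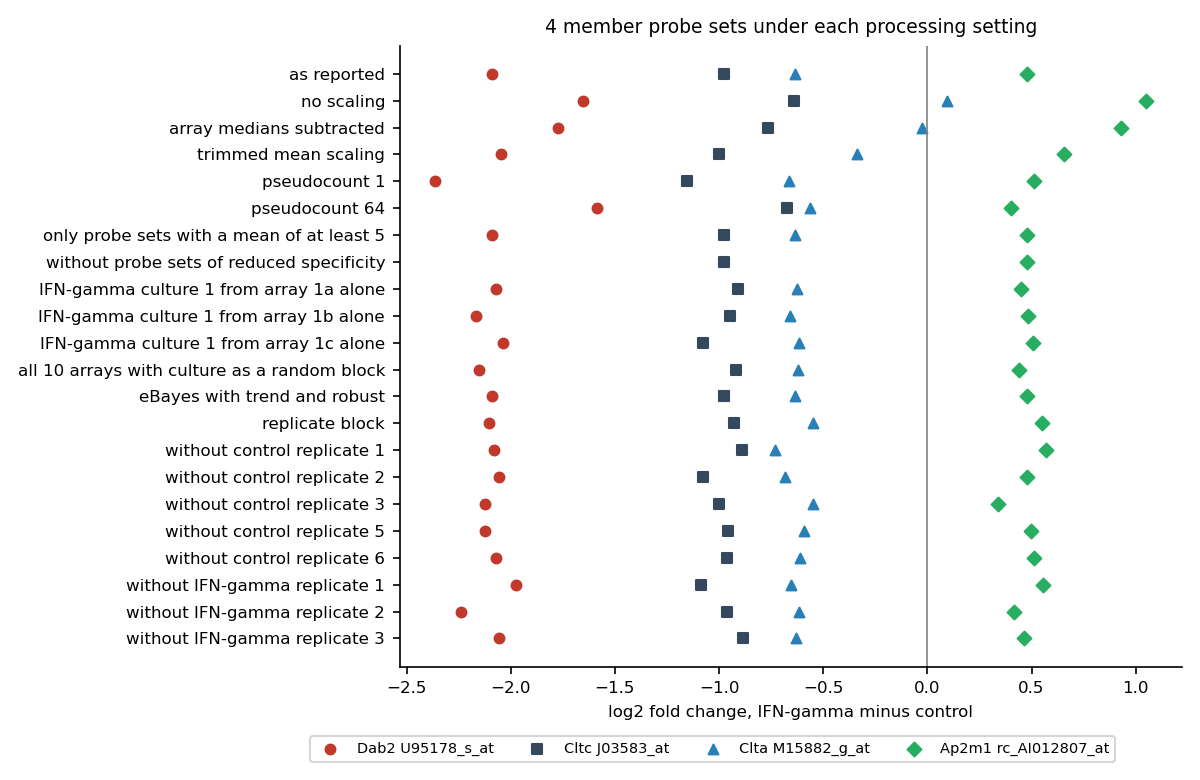
Log2 fold change (IFN-gamma minus control) of Dab2, Cltc, Clta (M15882_g_at) and Ap2m1 as reported (top row) and under 21 other settings. Dab2, chosen for its fall in these same arrays, stays left of the other 3 in every row that holds it, which is a description. Clta crosses 0 with no scaling, where it is 0.094.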

How the data were processed

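Signal of 10 Affymetrix rat arrays was analysed. The deposited table holds linear signal intensities, 1 for each probe set on each array. MAS5 and GCRMA are both named in the submitters' processing notes, without versions or roles, so it is unknown here which produced them. Genes came from the platform annotation, and all 7 member symbols matched the RefSeq table of GRCr8 through Entrez identifiers. Probe sets are given without coordinates, since no source used here names the array's build, and the coordinates of the printed promoter windows are those of RefSeq on GRCr8.

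After removal of 59 array controls from the tests, log2(signal + 16) was quantile normalised over 10 arrays, arrays 1a, 1b and 1c were averaged, and 8740 probe sets were tested two-sided with limma 3.58.1 (eBayes after lmFit, with group alone in the model, under R 4.3.3), Benjamini-Hochberg adjustment and a threshold of 0.05. The step was tested on simulated data. Nothing in the labels says whether control and IFN-gamma cultures were processed together, and p-values measure the spread between these cultures. Members and lists were chosen with earlier results of these data known. Named were all members, every list gene past the threshold with up to 3 others of smallest adjusted p per list, and the 6 genes most like Dab2.

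Alternatives covered scaling, pseudocounts of 1 and 64, a filter at a mean of 5, probe set specificity, the technical arrays (alone or as a random block with statmod 1.5.0), trend and robust variance, a replicate block and omission of each culture. The labels do not say that a shared number marks a shared brain or day, so the numbers were not taken as pairs. Same-numbered cultures deviated from their group means with correlations of -0.03, 0.00 and -0.01 for numbers 1, 2 and 3. With so few cultures, these correlations cannot exclude a pairing.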

Additional observations from a re-analysis of the deposited data

How the results depend on the processing

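In 21 other settings, Dab2 kept its sign in the 20 that retained it. The setting without probe sets of reduced specificity dropped its only probe set, so Dab2 has no value there. It was -1.65 with no scaling, -1.77 with array medians subtracted, -2.36 with a pseudocount of 1 and -1.59 with a pseudocount of 64, and -2.24 to -1.98 when 1 culture was left out. Pseudocounts change fold changes by construction. The number of coat and AP2 probe sets called was 0 in 17 settings and 1, which was Cltc, with a pseudocount of 64, with array 1c alone for IFN-gamma culture 1 and with culture as a random block over all 10 arrays, and ran from 0 to 1 with 1 culture left out (the 1 without control culture 2). Their median was 0.12 with no scaling and 0.063 without probe sets of reduced specificity, where fewer probe sets remain, and -0.34 to 0.031 with 1 culture left out. The count over all probe sets was 39 with no scaling (38 higher, 1 lower), 67 with a pseudocount of 1, 59 without probe sets of reduced specificity and 68 to 154 with 1 culture left out, against 134 as reported. Higher calls were 60.4% as reported, 97.4% with no scaling and 78.7% with array medians subtracted. With no scaling the median of all probe sets was 0.10, a shift of over 0.1 from -0.02. The cause of these differences was not tested.

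With the replicate block (culture number), 22 probe sets passed, the coat and AP2 median was -0.42, 0 Scarb1 probe sets passed and Ap2s1 was -0.12. Only 3 numbers occur in both groups, so this fit has fewer degrees of freedom. The uptake receptor list had 1 call with no scaling, with array medians subtracted, with a pseudocount of 1 and without probe sets of reduced specificity, and 1 to 2 with 1 culture left out. Over all 21 other settings its count ran from 0 to 3. The list of cargo receptors and partners had 1 call with a pseudocount of 64 and 0 to 1 with 1 culture left out.

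Signs turned, none of them in a called value, as follows. Clta M15882_at was -0.039 with the trimmed mean, -0.0019 with a pseudocount of 64, -0.13 with array 1c alone, -0.014 with the random block and -0.28 to 0.37 with 1 culture left out. With no scaling Clta M15882_g_at was 0.094, Ap2a2 0.12, Vps4a 0.088, Cd14 0.083 and Flot1 0.34, and Flot1 was 0.22 with array medians subtracted. With 1 culture left out Ap2a2 ran from -0.34 to 0.13, Ap2b1 M77246_at from -0.038 to 0.43 and Ap2s1 from -0.049 to 0.15. Of 796 values of 39 single probe sets, 744 kept sign and call, 26 lost a call, 8 gained one and 18 turned sign. Weak signal limits Cltb M15883_at and rc_AI102411_at most.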
